A study of Homo sapiens with 6 samples.

Results

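Wnt target and feedback genes are described here in a colorectal cancer line kept with or without GCA, read as glycocholic acid, the glycine-conjugated bile acid in the title of the series. The genes were chosen by symbol, and all 10 of 10 (AXIN2, LGR5, ASCL2, RNF43, ZNRF3, NKD1, SP5, TCF7, LEF1 and NOTUM) had a row among the 16229 gene symbols of the deposited count table. RNA sequencing covered 6 libraries, 3 from cells treated with GCA for 24 hours (treatment label GCA, sample titles fa) and 3 from untreated control cells (CON). The labels call the cells MC38, wild type, and state no dose. They do not say whether replicates were separate cultures, so each p-value covers only sample-to-sample spread, possibly technical. The name MC38 usually stands for a mouse colon line, whereas the organism label reads human and the tables hold human symbols. The extraction text mentions heart tissue, and polyA RNA is named beside a kit that depletes ribosomal RNA. The values are therefore given for the labelled libraries without settling which line they came from.

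In the canonical Wnt pathway, a Wnt ligand bound by Frizzled and LRP receptors stops a destruction complex built on APC and Axin from degrading beta-catenin, which then drives transcription together with TCF and LEF factors. Among the genes it switches on are brakes on the same pathway: AXIN2 rebuilds the destruction complex, RNF43 and ZNRF3 remove Frizzled from the cell surface, NKD1 binds Dishevelled, and NOTUM strips the lipid that a Wnt ligand needs. LGR5 and ASCL2 mark stem cells at the base of the intestinal crypt, and this set is widely read as an output of beta-catenin in colorectal tumours.

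Total counts ran from 18057453 to 20531612 per library. CON 1 stood apart from CON 2 and CON 3 on the second principal component of log2 CPM (18.1% of the variance), at 34.5 against -14.7 and -17.8. CPM here are counts scaled to library size after TMM normalization. Of 11 intestinal epithelial markers, EPCAM had 4859 to 6334 counts per library and CDX2 549 to 771, while KRT20, LGALS4, CDH17, VIL1 and CDX1 were low, with at most 47, 56, 17, 22 and 7 counts in a library. The list summed to 7920 to 10100 CPM in CON and 11100 to 12700 CPM in GCA, nearly all of it from KRT8, KRT18 and KRT19. Of these keratins KRT8 (log2 0.50) and KRT18 (0.70) were called higher. Over the list, 4 of 9 tested genes were called higher and 0 lower, where 18.3% and 18.1% of all tested genes were. Among 7 cardiomyocyte markers MYH6, MYH7, ACTC1 and NPPA had at most 1 count in any library, although the list summed to 23.5 to 26.8 CPM in CON and 37.2 to 42.4 CPM in GCA, nearly all from TNNI3 (415 to 483 counts in CON and 718 to 781 in GCA). The 8 fibroblast and endothelial markers summed to 12 to 13.3 CPM in CON and 17.1 to 18.6 CPM in GCA. Of these, 3 were tested and 2 called higher, COL1A1 (log2 0.44) and VWF (1.43), where 18.3% of all tested genes were. VWF was scarce, with 7, 17 and 11 counts in CON 1 to 3 against 30, 38 and 31 in GCA 1 to 3. COL1A2 and DCN had at most 3 counts in a library. The B cell and myeloid list summed to 20.5 to 27 and 15.8 to 26.4 CPM. The part of these lists in the results below was not tested. In bulk RNA, a change in the number of cells of 1 type and a change in RNA per cell cannot be told apart.

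The set split. AXIN2, NOTUM and ZNRF3 rose by factors of 1.99, 2.04 and 1.57 in GCA, SP5 had a higher mean that missed the threshold, RNF43, NKD1 and TCF7 had log2 fold changes between -0.15 and -0.09 that did not pass, and LGR5, ASCL2 and LEF1 were near 0 in every library. Of the 10 genes, 7 passed the filter on low counts and were tested. Of these 7, 3 were called higher in GCA and 0 lower at an adjusted p below 0.05 (quasi-likelihood F test of edgeR, Benjamini-Hochberg over all 12604 tested genes), against 18.3% of all tested genes called higher and 18.1% called lower (36.4% in either direction). The median log2 fold change was 0.65 over the 7 genes and -0.04 over all genes tested. In 4 of the 7 all 3 GCA libraries lay above all 3 CON libraries in CPM, a pattern found in 24.1% of tested genes. With so many genes called in the table, these counts describe the 7 genes and single nothing out about the set.

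**Figure D1:**
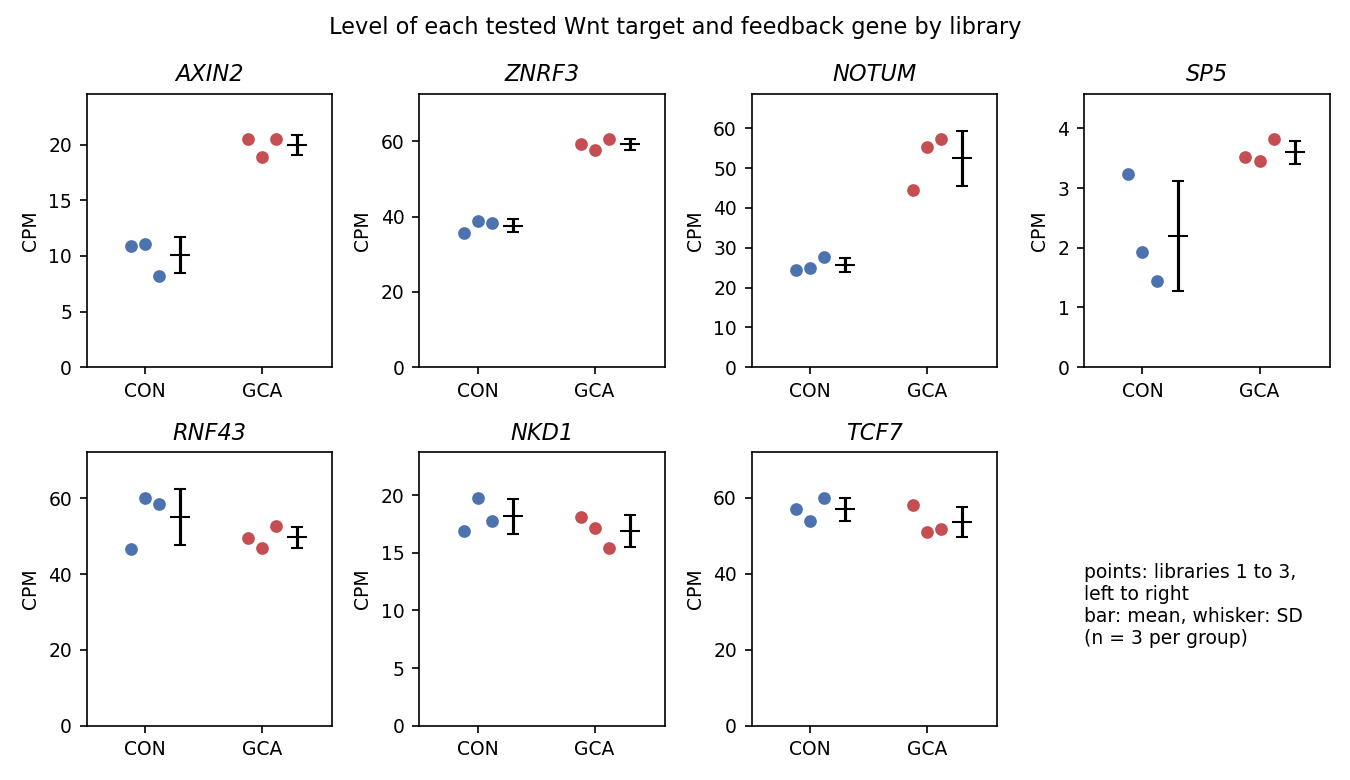
Level of the 7 tested genes in CPM (vertical axes, starting at 0) in each CON (blue) and GCA (red) library, with the mean and SD of 3 libraries beside the points. AXIN2, ZNRF3, NOTUM and SP5 show no overlap between the groups, while RNF43, NKD1 and TCF7 do.

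AXIN2 encodes a scaffold of the beta-catenin destruction complex and is the standard readout of beta-catenin activity (chromosome 17, 65528563 to 65561648, GRCh38.p14, minus strand). The CON libraries 1 to 3 held 196, 212 and 158 counts and the GCA libraries 1 to 3 held 414, 372 and 392, or 10.9, 11.1 and 8.18 CPM against 20.5, 18.9 and 20.5 CPM. The lowest GCA library stood well above the highest CON library. The mean went from 10.1 ± 1.62 CPM (SD, n = 3) to 20.0 ± 0.926 CPM, a log2 fold change of 0.99 ± 0.16 (SE; adjusted p = 0.000566). The rise was past the threshold in each of 17 alternative fits, with log2 values from 0.69 to 1.08, while 11.8% to 29.3% of all tested genes were called higher in those fits. For AXIN1, the constitutive counterpart of AXIN2, the log2 value was 0.19 ± 0.11 (adjusted p = 0.21), which turned to -0.23 once GC content and length were fitted out. Within each library, the FPKM (counts scaled to library total and gene length, as deposited) of AXIN2 was 0.193 ± 0.0455 of that of AXIN1 in CON and 0.333 ± 0.0142 of it in GCA. AXIN2 shares 23546 bases with the protein-coding gene AC004805.1 on the same strand in GENCODE 29. AC004805.1 has no row in the count table, and an effect of the overlap on the counts was not tested.

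NOTUM encodes a secreted carboxylesterase that inactivates Wnt ligands (chromosome 17, 81952507 to 81961187, minus strand). CON 1 to 3 gave 438, 478 and 537 counts, and GCA 1 to 3 gave 899, 1088 and 1094. The groups were far apart, and GCA 1 was the lowest of its group. The mean rose from 25.7 ± 1.84 to 52.4 ± 6.84 CPM (SD, n = 3; log2 1.03 ± 0.13, adjusted p = 0.000132). Its transcript is GC-rich (66.5% GC), and with offsets for GC content and length in the fit its log2 value was 0.48 ± 0.12 (adjusted p = 0.0167). NOTUM had the highest FPKM of the 10 genes in both groups, at 11.8 ± 1.41 in CON and 23.2 ± 3.06 in GCA.

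ZNRF3 and RNF43 are paralogous membrane ubiquitin ligases that clear Frizzled receptors and are held in check by R-spondins bound to LGR proteins. ZNRF3 (chromosome 22, 28883572 to 29057488, plus strand) had CON counts of 641, 745 and 740 and GCA counts of 1195, 1133 and 1157 (libraries 1 to 3). Both groups were tight and did not overlap. ZNRF3 rose from 37.6 ± 1.68 to 59.2 ± 1.47 CPM (SD, n = 3; log2 0.65 ± 0.11, adjusted p = 0.000809), and the call held in all 17 alternative fits (log2 0.51 to 0.69).

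RNF43 (chromosome 17, 58352500 to 58417534, minus strand) had CON counts of 837, 1154 and 1132 and GCA counts of 998, 924 and 1005. In CPM these were 46.6, 60.2 and 58.6 against 49.5, 47.0 and 52.6. CON 1 was the lowest of the 6 libraries and CON 2 and CON 3 the highest, so the groups overlapped. The log2 fold change of -0.15 ± 0.13 did not pass (adjusted p = 0.376). Without CON 1 the value was -0.26 ± 0.09 and passed (adjusted p = 0.0349), where 27.3% of all tested genes were called lower. RNF43 shares 65096 bases with the protein-coding gene AC004687.2, which has no row in the count table, on the same strand in GENCODE 29. It also shares 594 bases with SUPT4H1 on that strand. SUPT4H1 was higher in GCA (log2 0.45, adjusted p = 0.0171), and whether reads of the shared stretch were split between these genes was not tested.

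The ratio of ZNRF3 to RNF43 in FPKM, which library scaling cannot change, was 0.665, 0.561 and 0.568 in the CON libraries and 1.04, 1.06 and 1.0 in the GCA libraries. Every GCA library had a higher ratio than every CON library, and no test of the ratio was run. ZNRF3 made up 37.4 ± 2.24% of the summed FPKM of the pair in CON and 50.8 ± 0.796% in GCA (SD, n = 3). The sum itself was 12 ± 1.95 in CON and 13.3 ± 0.464 in GCA, a difference within the spread of the CON libraries.

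NKD1 encodes a cytoplasmic inhibitor that binds Dishevelled (chromosome 16, 50548396 to 50649249, plus strand). Its CON counts were 303, 379 and 344 and its GCA counts 364, 337 and 294. The groups overlapped throughout. Its mean was 18.1 ± 1.47 CPM in CON and 16.9 ± 1.35 CPM in GCA (log2 -0.11 ± 0.14, adjusted p = 0.584), and it did not pass in any of 17 alternative fits.

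SP5 encodes a zinc-finger transcription factor that Wnt signalling induces directly and that in turn dampens other Wnt targets (chromosome 2, 170715337 to 170718078, plus strand). It was the scarcest of the 7 tested genes by counts, with 58, 37 and 28 in the CON libraries against 71, 68 and 73 in the GCA libraries. The same values in CPM were 3.23, 1.93 and 1.45 for CON against 3.52, 3.46 and 3.82 for GCA. The groups did not overlap, but CON 1 lay close to the GCA libraries. The log2 fold change of 0.71 ± 0.29 missed the threshold (adjusted p = 0.0699). With the replicate number as a block it was 0.75 ± 0.28 (adjusted p = 0.0493), where 20.0% of all tested genes were called higher, and without CON 1 it was 1.09 ± 0.25 (adjusted p = 0.00306), where 25.3% were. SP5 was also called higher with limma-voom and with limma on log2(FPKM + 1), where 18.2% and 16.1% of all tested genes were, and without replicate 1 of both groups, where 29.3% were. With offsets for GC content and length it was 0.21 ± 0.27 (adjusted p = 0.589). The SP5 transcript has 66.2% GC.

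The promoter of SP5 is shown because it holds repeated letters of the TCF and LEF recognition motif, and that of RNF43 because it holds none. Each window runs from 250 bases before the start site to 50 bases from it on, 5′ to 3′ on the strand of the gene, from RefSeq (GRCh38.p14). The SP5 window is chr2:170715087-170715386 (plus strand) and the RNF43 window is chr17:58417485-58417784 (minus strand). Capitals mark matches on either strand to CTTTGAT, to its variant CTTTGAA, and to the further variants with other ends, CTTTGTT as well as CTTTGTA.
SP5: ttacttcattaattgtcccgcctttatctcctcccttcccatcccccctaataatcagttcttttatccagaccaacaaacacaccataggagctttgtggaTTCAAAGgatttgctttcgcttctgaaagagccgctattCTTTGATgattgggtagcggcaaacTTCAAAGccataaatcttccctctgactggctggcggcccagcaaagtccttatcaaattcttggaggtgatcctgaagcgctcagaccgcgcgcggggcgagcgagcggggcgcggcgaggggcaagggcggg
RNF43: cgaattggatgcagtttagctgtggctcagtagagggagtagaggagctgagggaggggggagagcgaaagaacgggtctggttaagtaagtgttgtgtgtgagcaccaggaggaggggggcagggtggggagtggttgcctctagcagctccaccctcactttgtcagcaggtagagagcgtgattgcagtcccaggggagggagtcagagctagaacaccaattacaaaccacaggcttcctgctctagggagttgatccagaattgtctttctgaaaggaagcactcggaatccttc
The 3 matches in SP5 lie at positions -148, -109 and -84 from the start site, with CTTTGAT on the plus strand in the middle and CTTTGAA on the minus strand on each side, and none overlap. The RefSeq table matched 4 of the 10 genes (RNF43, SP5, TCF7 and LEF1), and 1 of these windows, that of SP5, held a match. The windows of TCF7 (chr5:134115363-134115662) and LEF1 (chr4:108166252-108166551) lie inside the gene spans given below. They are at internal start sites, and the sequence at the outer gene starts was not searched. Among the promoters of 12797 genes in the count table, 9.21% held at least 1 match. Of the tested genes with a promoter in the table, 4 had 3 or more matches. These were SP5, CD74, FUZ and RBPJ, singled out after their values were seen, with log2 fold changes of 0.71, 0.94, 1.25 and -0.46. Only FUZ was called (adjusted p = 0.00282), and SP5, CD74 and RBPJ did not pass (adjusted p = 0.0699, 0.064 and 0.081). Of the 815 tested genes with at least 1 match 14.4% were called higher and 18.5% lower, against 17.4% and 18.5% of the 9340 without a match. The windows with a match had a lower median GC content (59.0% against 66.3%).

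TCF7 and LEF1 encode DNA-binding partners of beta-catenin and are themselves Wnt targets. TCF7 (chromosome 5, 134108218 to 134148210, plus strand) had CON counts of 1022, 1034 and 1159 and GCA counts of 1168, 1000 and 989. In CPM these were 56.9, 53.9 and 60.0 against 58.0, 50.9 and 51.8. The groups overlapped, with GCA 1 among the CON libraries. The log2 fold change was -0.09 ± 0.11 (adjusted p = 0.568). With offsets for GC content and length TCF7 was called lower at -0.32 ± 0.10 (adjusted p = 0.0365), where 17.2% of all tested genes were called lower and 12.1% higher, and with the replicate block added it was -0.32 as well (adjusted p = 0.0245), where 21.1% were called lower. TCF7 overlaps SKP1 on the opposite strand by 2931 bases, and the sources used here give no strand setting of the counting, so reads of these genes may not be told apart.

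LEF1 (chromosome 4, 108047548 to 108168932) had 0 counts in each CON library and 0, 1 and 0 in GCA 1 to 3. A count of 0 allows up to 3 counts, or 0.149 to 0.167 CPM depending on the library, for counting error only. TCF7 and LEF1 are also known from T cells. The T cell markers CD3E, CD2 and PTPRC had at most 1 count in any library, but CD8A and LCK were detected in every library. CD8A gave 17, 32 and 32 counts per CON library against 38, 23 and 27 per GCA library. For LCK the counts were 8, 19 and 9 against 12, 21 and 22. Neither was called (log2 0.06 and 0.55, adjusted p = 0.898 and 0.333). The 7 T cell markers with a row summed to 1.67 to 3.08 CPM in CON and 2.65 to 3.04 CPM in GCA, mostly from CD8A and LCK. Of the family, TCF7L2 made up 72.3 ± 2.53% of the summed FPKM in CON and 67.3 ± 2.12% in GCA. The shares in CON and GCA were 18.7 ± 1.39% and 23.8 ± 1.95% for TCF7L1 and 9.0 ± 1.17% and 8.93 ± 0.297% for TCF7. These shares depend on the length per gene implied by the FPKM, which was 14301 bases for TCF7. In CPM, which leave length out, TCF7 stood above TCF7L1 in CON (56.9 against 24.8) and in GCA (53.6 against 29.7). TCF7L2 was highest in CPM as well (171 and 150).

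The stem cell genes of the set were not measurable. LGR5, which encodes an R-spondin receptor (chromosome 12, 71439129 to 71586310), and ASCL2, a transcription factor of crypt stem cells (chromosome 11, 2268498 to 2270588), each had 0 counts in all CON libraries, 0 in GCA 1 and GCA 2 and 1 in GCA 3. Both were below the filter, and no fold is given for them or for LEF1. LGR4, the paralog of LGR5 that also binds R-spondins, was present at 5.08 ± 0.914 CPM in CON and 6.31 ± 0.845 CPM in GCA (log2 0.31 ± 0.21, adjusted p = 0.255). With offsets for GC content and length LGR4 was called higher, at 0.61 ± 0.16 (adjusted p = 0.0196).

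Per length, the order of levels in CON was NOTUM (11.8 FPKM), RNF43 (7.53), ZNRF3 (4.45), TCF7 (4.05), AXIN2 (1.90), NKD1 (1.06) and SP5 (0.696). The ranges of the neighbours ZNRF3 and TCF7 overlapped, as did those of NKD1 and SP5, and the other neighbours were separate. In GCA the order was NOTUM (23.2 FPKM), ZNRF3 (6.76), RNF43 (6.53), TCF7 (3.68), AXIN2 (3.66), SP5 (1.12) and NKD1 (0.953), with overlapping ranges for ZNRF3 and RNF43 and for TCF7 and AXIN2. By FPKM ZNRF3 thus came level with RNF43, and AXIN2 with TCF7. This order depends on the length per gene implied by the FPKM. That length was 14301 bases for TCF7 and 17416 for NKD1 against 5378 for AXIN2 and 2223 for NOTUM. In CPM, which leave length out, TCF7 stood above AXIN2 in GCA (53.6 against 20.0) and above NOTUM in CON (56.9 against 25.7). In CON the FPKM of NOTUM exceeded that of 73.0% of genes in the table and that of SP5 exceeded 33.7%.

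**Figure D2:**
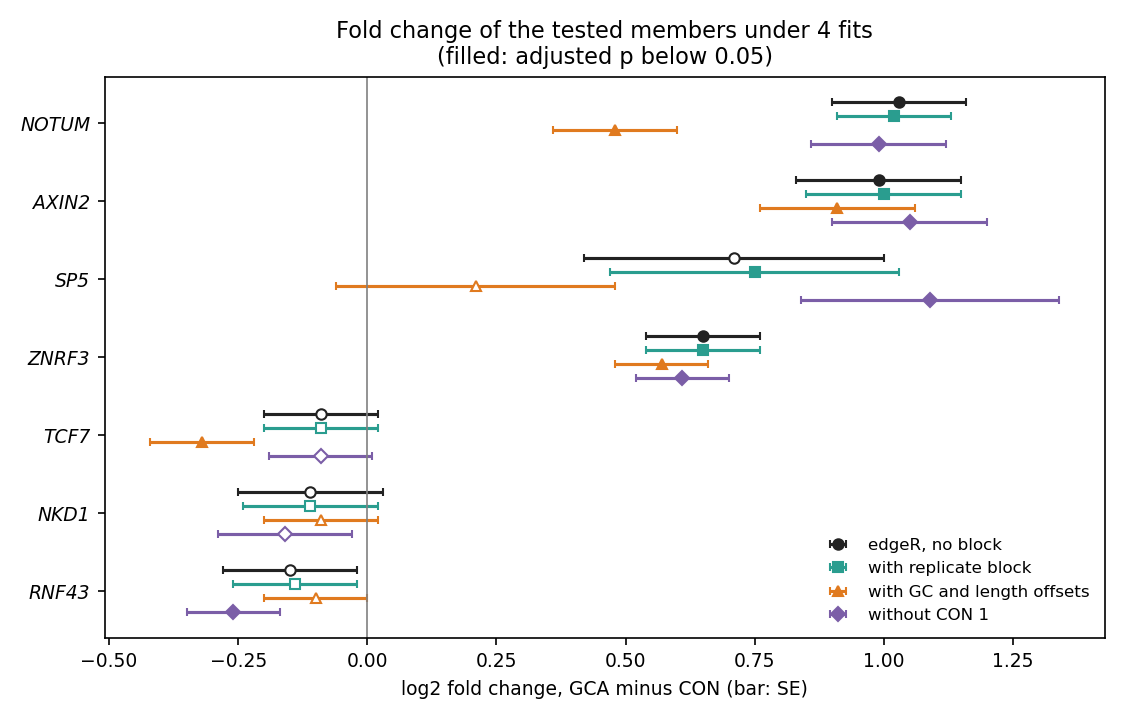
Log2 fold change of GCA minus CON (horizontal axis, bars give the SE) of the 7 tested genes under 4 fits, filled where the adjusted p is below 0.05. AXIN2, NOTUM and ZNRF3 are filled in all 4, SP5 is filled with the replicate block and without CON 1, and RNF43 and TCF7 are each filled in 1.

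Fold changes in this table rose with GC content across genes (Pearson r = 0.484 over 12563 genes, which are not independent replicates). The median log2 fold change went from -0.36 to 0.44 from the lowest to the highest of 10 equal bins of GC content. AXIN2 (53.1% GC) and ZNRF3 (53.5%) lay near the middle, and their log2 values moved from 0.99 to 0.91 and from 0.65 to 0.57 with offsets for GC content and length. NOTUM and SP5 were in the highest bin and moved most, from 1.03 to 0.48 and from 0.71 to 0.21. In that fit 3 of the 7 genes were called higher and 1 lower, where 12.1% and 17.2% of all tested genes were. Whether GC content reflects the cells or the libraries was not tested.

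**Figure D3:**
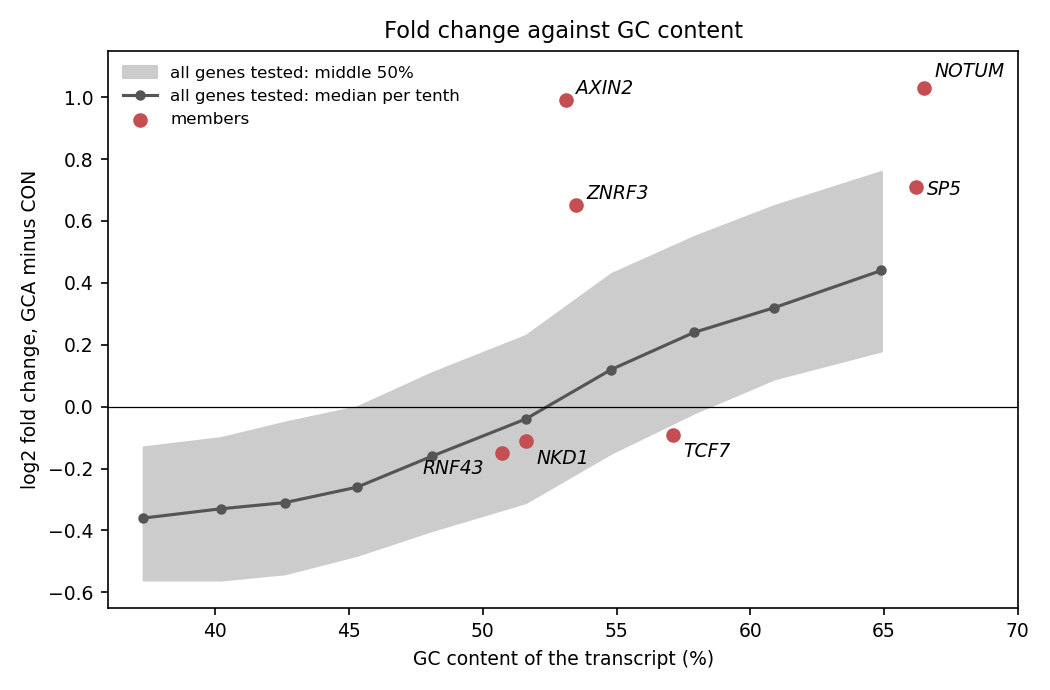
Log2 fold change of GCA minus CON (vertical axis) against GC content of the transcript in percent (horizontal axis). The grey line and band give the median and middle 50% of all tested genes in 10 bins of GC content, and red points are the 7 tested genes, of which AXIN2, ZNRF3 and NOTUM lie above the band.

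The rest of the pathway was described through 114 genes in 6 lists, of which 106 had a row and 87 were tested. Of these 87, 24 were called higher and 7 lower (18.3% and 18.1% of all tested genes), with a median log2 fold change of 0.11 against -0.04 over all genes. With offsets for GC content and length the counts were 17 higher and 10 lower (12.1% and 17.2% of all tested genes), with the replicate block 25 and 11 (20.0% and 21.0% of all tested genes), and without CON 1 they were 24 higher and 15 lower, where 25.3% and 27.3% of all tested genes were called.

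Of 15 tested genes in the list of Wnt ligands and their release, 7 were called higher and 2 lower, where 18.3% and 18.1% of all tested genes were, with a median log2 fold change of 0.51. WNT7B, a canonical ligand, rose from 30.8 ± 3.09 to 60.1 ± 13.2 CPM (SD, n = 3; log2 0.96 ± 0.16, adjusted p = 0.000686), with 499, 587 and 656 counts per CON library and 926, 1224 and 1377 per GCA library. WNT16 fell from 88.7 ± 16.1 to 40.3 ± 1.22 CPM (log2 -1.14 ± 0.14, adjusted p = 0.000104), where the counts per library were 1265, 1938 and 1826 for CON against 834, 794 and 744. By FPKM WNT16 stood above WNT7B in CON (27.8 ± 6.67 against 7.55 ± 1.17). In GCA the means were 12.1 ± 0.39 for WNT16 and 14.2 ± 3.12 for WNT7B, a difference within the spread of WNT7B. The other calls, named after their values were seen, were the ligands WNT4 (log2 1.41), WNT6 (1.11), WNT10A (1.09), WNT5B (1.66) and WNT3A (0.51) and the ligand acyltransferase PORCN (0.54), all higher, and WNT10B (-0.39), lower. With offsets for GC content and length 3 of the 15 were called higher and 3 lower (12.1% and 17.2% of all tested genes). WNT3A then stood at -0.04, and WNT5B, WNT6 and PORCN lost their calls (adjusted p = 0.108, 0.179 and 0.339). WNT7B stood at 0.53 in that fit (adjusted p = 0.0256). WNT5B rests on 12, 4 and 1 counts in CON against 17, 17 and 23. Its log2 value ran from 1.16 to 2.84 with 1 library left out, it passed there only without CON 1, and it did not pass with DESeq2 (adjusted p = 0.0604). The call of WNT3A was lost on leaving out CON 2, CON 3, GCA 2 or GCA 3 in turn (adjusted p between 0.0513 and 0.0931), that of PORCN without GCA 3 (0.0541), and that of WNT10B on leaving out CON 3 or any 1 GCA library (0.0707 to 0.119) and with DESeq2 (0.0521).

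Among receptors, co-receptors and R-spondins 4 of 18 tested genes were called higher and 0 lower, with a median of 0.17. The share called higher was near that of all tested genes (18.3%, with 18.1% called lower). The Frizzled receptor gene FZD2 rose from 28.8 ± 1.12 to 51.2 ± 6.97 CPM (log2 0.83 ± 0.13, adjusted p = 0.000473) and FZD9 from 2.45 ± 0.278 to 5.64 ± 0.806 CPM (log2 1.20 ± 0.22, adjusted p = 0.00136). With offsets for GC content and length FZD2 stood at 0.35 (adjusted p = 0.0325) and FZD9 at 0.64 (adjusted p = 0.0351). The co-receptors LRP5 (log2 0.61) and PTK7 (0.44), named after their values were seen, were the other calls, and both lost them with offsets for GC content and length (adjusted p = 0.156 and 0.615). PTK7 also lost its call without GCA 1 (0.0763) or GCA 3 (0.0845).

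In the list of the destruction complex and Dishevelled 3 of 20 genes were called higher and 2 lower, with a median of -0.01, and neither share exceeded that of all tested genes (18.3% and 18.1%). APC, the scaffold most often mutated in colorectal cancer, was low and variable, with 103, 179 and 130 counts per CON library against 156, 149 and 91 (GCA; log2 -0.12 ± 0.24, adjusted p = 0.722). Its direction turned without CON 2 (0.12), without GCA 3 (0.08) and with offsets for GC content and length (0.22). Its homolog APC2 rose from 4.82 ± 0.550 to 11.1 ± 0.612 CPM (log2 1.20 ± 0.17, adjusted p = 0.000311). FRAT2, which encodes a GSK3-binding protein that frees beta-catenin, rose from 15.9 ± 1.39 to 31.0 ± 1.18 CPM (log2 0.97 ± 0.13, adjusted p = 0.000195). Named after their values were seen, FRAT1 (log2 1.46) was the third higher call, and the kinase gene CSNK1A1 (-0.55) and the tankyrase gene TNKS (-0.58) were the lower ones. Neither lower call passed with the offsets (adjusted p = 0.0819 and 0.065), although TNKS did with offsets and block together (adjusted p = 0.035), and CSNK1A1 did not pass without GCA 3 (0.0514).

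Of beta-catenin and its nuclear partners 4 of 14 genes were called higher and 0 lower (18.3% and 18.1% of all tested genes). The count called lower was 2 with the offsets, where 17.2% of all tested genes were, and 2 without CON 1, where 27.3% were. It was 5 without replicate 1 of both groups, where 29.3% of all tested genes were called lower. CTNNB1, the gene of beta-catenin itself, stood at a log2 value of -0.23 ± 0.12 (adjusted p = 0.155), from 173 ± 17.4 to 147 ± 12.1 CPM, which was -0.30 and passed without CON 1 (adjusted p = 0.0195) and turned to 0.03 with the offsets. TCF7L2, the main TCF gene of the intestine, stood at -0.19 ± 0.14 (adjusted p = 0.29) and at 0.03 with the offsets, and was called lower without replicate 1 of both groups (log2 -0.35, adjusted p = 0.00161). CTNNBIP1, whose product keeps beta-catenin off TCF, rose from 44.9 ± 1.28 to 85.4 ± 2.89 CPM (log2 0.93 ± 0.11, adjusted p = 8.02e-05). The corepressor gene TLE2 rose from 66.7 ± 1.94 to 115 ± 3.63 CPM (log2 0.79 ± 0.11, adjusted p = 0.000234), and its log2 value was 0.32 with the offsets. The other calls, TLE5 (log2 0.56) and the cadherin gene CDH1 (0.40), were named after their values were seen. TLE5 did not pass with the offsets alone (adjusted p = 0.0856) and did with the block added (adjusted p = 0.0491). CDH1, with an adjusted p of 0.046, did not pass when any 1 GCA library was left out (0.0755 to 0.13), with library size scaling alone (0.132) or with limma on either FPKM scale (0.128 and 0.118).

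Of the extracellular and cytoplasmic inhibitors 5 of 10 genes with a row were tested, 1 called higher and 2 lower (18.3% and 18.1% of all tested genes). KREMEN1, a receptor for the Wnt antagonist DKK1, rose from 102 ± 6.59 to 183 ± 1.67 CPM (log2 0.84 ± 0.11, adjusted p = 0.000184). TRABD2A, a membrane protease that cleaves Wnt ligands, fell from 3.95 ± 0.581 to 2.31 ± 0.222 CPM (log2 -0.78 ± 0.23, adjusted p = 0.0209), a call that needed each of CON 2, CON 3, GCA 2 and GCA 3 (adjusted p between 0.0735 and 0.0838 when 1 of them was left out). DKK1, named after its values were seen, was the other lower call (log2 -0.38, adjusted p = 0.0264), and it was lost with the offsets (adjusted p = 0.23) and without CON 2, CON 3, GCA 2 or GCA 3 (0.0579 to 0.113).

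Other genes reported as Wnt targets in colorectal cancer did not share 1 direction. Of 15 tested genes 5 were called higher and 1 lower (18.3% and 18.1% of all tested genes), with a median of 0.24. MYC, the transcription factor gene most often cited as such a target, fell from 563 ± 28.2 to 398 ± 31.7 CPM (log2 -0.50 ± 0.12, adjusted p = 0.00824); without GCA 2 the adjusted p was 0.0508. CCND1, the cyclin D1 gene, had a log2 value of -0.26 ± 0.13 (adjusted p = 0.127) and the adhesion receptor gene CD44 0.05 ± 0.16 (adjusted p = 0.821). CCND1 passed with library size scaling alone (log2 -0.30, adjusted p = 0.0365) and with limma on either FPKM scale (adjusted p = 0.0247 and 0.0272). It also passed without replicate 1 of both groups (log2 -0.19, adjusted p = 0.0237), where 29.3% of all tested genes were called lower. CD44 was -0.12 without CON 1. SOX9, a crypt transcription factor gene, rose from 165 ± 22.3 to 241 ± 29.1 CPM (log2 0.54 ± 0.14, adjusted p = 0.00963; 0.0635 without GCA 3). BMP4 rose from 123 ± 5.40 to 223 ± 12.9 CPM (log2 0.86 ± 0.12, adjusted p = 0.000188) and CEMIP, a hyaluronan-binding protein gene, from 3.84 ± 1.01 to 9.39 ± 0.550 CPM (log2 1.29 ± 0.21, adjusted p = 0.000687). The remaining calls, EPHB3 (log2 0.84) and TNFRSF19 (0.90), were named after their values were seen. EPHB3 had an adjusted p of 0.0557 with the offsets and 0.0232 with offsets and block. TNFRSF19, at an adjusted p of 0.0457, lost its call when any 1 library other than CON 2 was left out (0.0832 to 0.115) and with DESeq2 (0.0782).

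**Figure D4:**
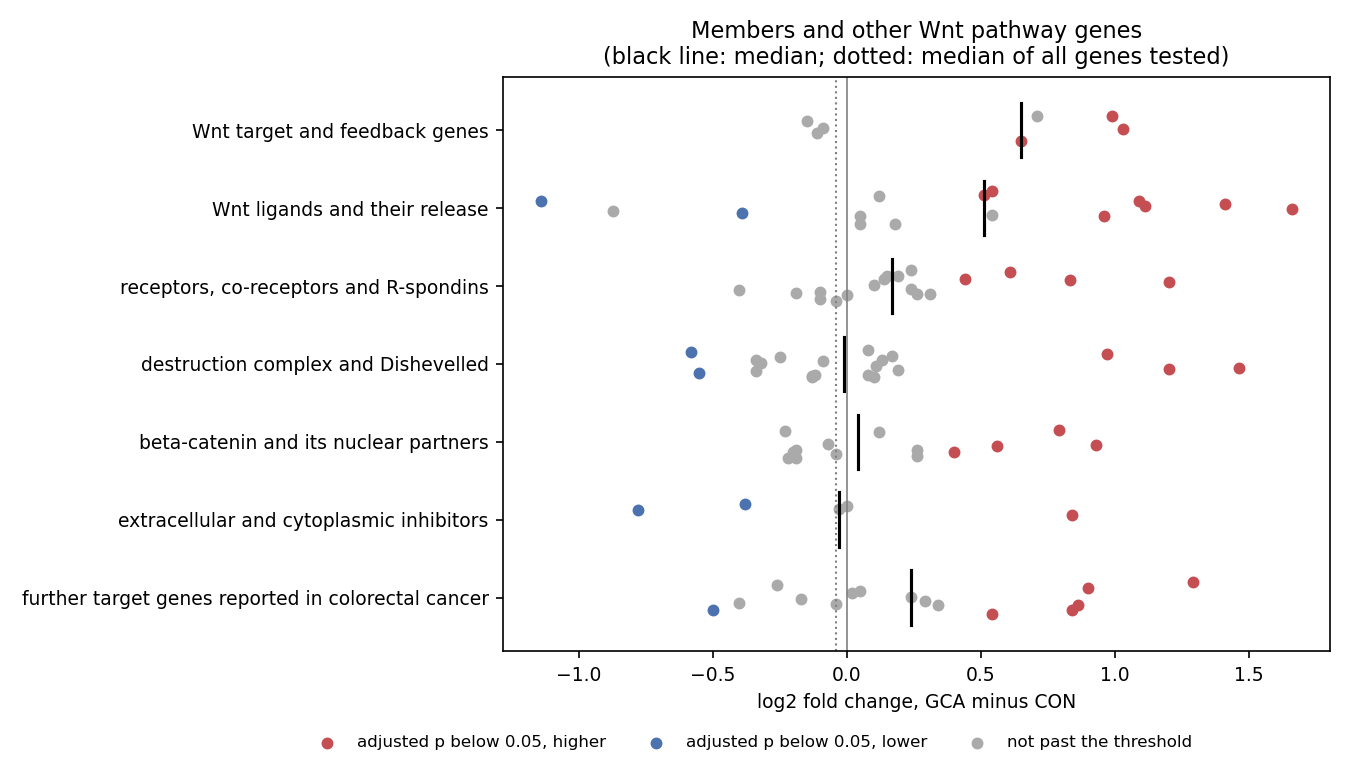
Log2 fold change of GCA minus CON (horizontal axis) for the tested Wnt target and feedback genes and 6 lists of other pathway genes, 1 point per gene, coloured by the test, with the list median as a black line. Medians run from -0.03 to 0.65, the ligand list spans -1.14 to 1.66, and most points of the destruction complex list are grey.

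The genes whose log2 CPM over the 6 libraries tracked AXIN2 most closely, among 11375 genes compared, were KIF17 (Pearson r = 0.9982), C7orf26 (0.9967) and DNER (0.9957). KIF17 had 37, 40 and 30 counts per CON library against 68, 61 and 65 (GCA), and DNER had 92, 107 and 53 against 327, 334 and 350. Both were lowest in CON 3, as AXIN2 was. The correlation reached 0.9 or more in 1178 genes (10.4%), and the 6 points share 2 groups of libraries. Among the set itself it was 0.946 for ZNRF3, 0.896 for NOTUM and 0.862 for SP5, and -0.438 for NKD1, -0.532 for RNF43 and -0.591 for TCF7.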

How the data were processed

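Gene expression was measured by RNA sequencing in 6 libraries, 3 GCA and 3 CON. The authors deposited raw counts per gene symbol, and FPKM values that equal count over library total and 1 length per gene for 16229 of 16229 genes (relative tolerance 1e-09). Tools listed by the submitters' processing notes were HISAT2 2.2.1.0, fastp 0.20.1 and HTSeq 0.11.2, with hg38 as the build. The sources used here give no annotation release, strand setting or filter. Columns were matched to samples by title and groups taken from the treatment label.

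Counts were tested with edgeR 4.0.16 in R 4.3.3 (TMM, filterByExpr with minimum count 10 and minimum total 15, glmQLFit, glmQLFTest, Benjamini-Hochberg adjustment over all tested genes, threshold 0.05), after a check on simulated data. The SE is the log2 fold change over the square root of F. CPM use TMM-scaled library sizes; log2 CPM used a prior count of 2. GC content came from GENCODE 29 transcripts for 99.2% of genes, and coordinates and promoters from RefSeq. GC and length offsets were spline fits (5 degrees of freedom each) per library. Libraries with the same number in their titles deviated together from their group means (r = 0.206, 0.137 and 0.104 over genes, which are not independent replicates). All 3 exceeded the limit of 0.1, so a fit with the number as a block was run as an alternative. The main fit had no block, so its SE, p-values and counts of calls are unpaired. CON 3 and GCA 2 correlated at 0.0954. The members and lists were chosen with earlier results of these data known. The text names every member, the 2 genes of lowest p among the calls of each list, 9 chosen core pathway genes, and the 3 genes most like AXIN2; other names are marked. Alternatives were other scalings, no filter, DESeq2 1.42.0, limma 3.58.1 (voom, log2(FPKM + 1), log2(FPKM + 0.1)), the replicate block, the offsets and leaving out libraries.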

Additional observations from a re-analysis of the deposited data

How the results depend on the processing

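AXIN2, NOTUM and ZNRF3 kept their direction and their call in all 17 alternatives, and NKD1 stayed short of the threshold in all 17. SP5 passed with limma-voom (log2 0.79), limma on log2(FPKM + 1) (0.33), the replicate block (0.75) and without replicate 1 of both groups (1.13), and ran from 0.50 to 1.09 with 1 library left out. RNF43 passed without replicate 1 of both groups (-0.23) and ran from -0.26 to -0.07 with 1 library left out. TCF7 passed at -0.32 with GC and length offsets, with or without the block. The count of the 7 genes called lower was thus 1 in place of 0 with the offsets, with the offsets and the block, and without replicate 1 of both groups, and 0 to 1 with 1 library left out. Of all tested genes 17.2%, 21.1% and 29.3% were called lower in the fits named first, and 27.3% without CON 1. The share in the main fit was 18.1%. Apart from SP5 and C7orf26 (adjusted p = 0.0466, against 0.0503), the replicate block changed no call of a named gene. Over the table, 4584 genes passed, 2621 (without GCA 3) to 6707 (without CON 1) with 1 library left out, 3029 without CON 2, 5163 with the block and 7419 without replicate 1 of both groups. Genes called higher went from 2307 to 1522 with the offsets, to 3710 without replicate 1 of both groups and to between 1493 and 3225 with 1 library left out; genes called lower went from 2277 to 3709 and to between 1128 and 3482. The share of calls that were higher was 50.3%, 41.3% with the offsets and 39.8% with offsets and block. With the offsets AXIN1 was -0.23, APC 0.22 (0.20 with the block), CTNNB1 0.03, TCF7L2 0.03, WNT3A -0.04 and C7orf26 -0.11. With library size alone CD44 was -0.01, and it was -0.15 without replicate 1 of both groups and -0.12 to 0.17 with 1 library left out, where APC ran from -0.26 to 0.12. The cause of these changes was not tested. LGR5, ASCL2 and LEF1 had counts under 3 in every library, and whether this reflects depth or lack of expression was not tested.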
